A study of Mus musculus with 6 samples.

Results

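Interferon-induced genes were examined in epididymal white fat of patDp/+ and wild type mice. The genes were taken by name from the array: the Ifit, Ifi, Ifih, Ifitm, Oas, Gbp, Irf, Mx, Isg, Iigp, Irgm, Igtp and Tgtp families, and single genes such as Stat2, Rsad2, Usp18, Bst2, Rtp4, Cmpk2 and Ddx58. No difference between the groups entered this rule, though the genes were chosen with earlier results of these data known. The array carried 70 such genes, and 66 of them were measured, that is, had a probe that the scanner software marked well above background in 3 or more of the 6 arrays, out of 19194 genes or unnamed features measured in all. The remaining 4 were Ifi202b, Oas1d, Oas1g and Oas1h. Of these, Oas1h was well above background on 1 array and the others on none.

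The fat came from 3 patDp/+ males and 3 wild type males on a C57BL/6 background, 9 to 10 weeks old, with 1 one-colour array per mouse. patDp/+ mice are heterozygous for a duplication, inherited from the father, of the part of chromosome 7 that corresponds to the human 15q11-13 region. The duplication is present in every cell type, so it is not a model of a change in fat alone. Genes of the duplicated stretch bore out the genotype labels: Snrpn was 1.19 ± 0.13 (SE, n = 3 per group) higher on the log2 scale, Ndn 1.08 ± 0.13 and Ube3a 0.50 ± 0.07, and in none of these genes did the groups overlap. All arrays correlated at 0.988 or more over genes, which are not independent replicates. Between 63.8% and 72.1% of spots per array were well above background. The adipocyte markers Adipoq, Plin1, Fabp4, Cidec, Lipe and Lep were all measured, and none of the 4 epididymis markers on the array was. Levels are given as log2 intensity relative to the 75th percentile of the same array, so that a level of 0 equals that percentile, and errors of a difference are limma's standard errors.

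Interferons are secreted proteins that switch on antiviral and immune genes in neighbouring cells. Type I interferons (alpha and beta) bind the receptor made of Ifnar1 and Ifnar2. The kinases Jak1 and Tyk2 then activate factors such as Stat2, which joins Irf9 on the interferon-stimulated response element in promoters. Interferon gamma binds Ifngr1 and Ifngr2, and acts through Jak1 and Jak2 on promoters that hold the gamma-activated site. It also switches on Irf1, which binds the response element, and many targets answer to both kinds of interferon. In fat, resident T and NK cells can secrete interferon gamma, and adipocytes as well as macrophages carry both receptors.

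The promoters of the genes show these elements directly. The core of the response element was searched as GAAA, any 2 bases and GAAA again (TTTC, any 2 bases and TTTC on the other strand) and the gamma-activated site as TTCNNNGAA, which reads the same on both strands, in the 300 bases from 250 before to 50 after each RefSeq start (GRCm38.p6). Overlapping matches were counted separately. Of the 70 genes, 52 matched the promoter table by name, and 26 of these held the response element core and 17 (32.7%) the gamma-activated site, against 3.99% and 9.55% of all 27025 genes of the table. Of 23 type I targets with a promoter, 12 held the response element (52.2%) and 5 the gamma-activated site (21.7%). All 7 gamma targets with a promoter held the response element, and 3 of them (42.9%) also held the gamma-activated site. A match describes the letters and does not show that a factor binds there.

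Windows around the first match are shown for some type I and gamma targets, because the results compare these sets. Igtp and Tgtp1, counted below with the remaining Ifi genes, are shown as well. They run 5′ to 3′ on the strand of the gene, end no later than the start of transcription, and carry the matches in capitals.
Ifit1: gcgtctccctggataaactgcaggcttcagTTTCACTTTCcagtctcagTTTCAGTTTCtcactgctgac
Ifit3: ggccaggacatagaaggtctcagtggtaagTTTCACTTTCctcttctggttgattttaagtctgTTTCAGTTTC
Isg15: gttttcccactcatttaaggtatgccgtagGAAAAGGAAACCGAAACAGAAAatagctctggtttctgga
Rsad2: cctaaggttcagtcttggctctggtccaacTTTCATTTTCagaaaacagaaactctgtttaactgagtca
Gbp1 (Gbp2b): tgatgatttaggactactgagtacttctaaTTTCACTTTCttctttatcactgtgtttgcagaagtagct
Gbp2: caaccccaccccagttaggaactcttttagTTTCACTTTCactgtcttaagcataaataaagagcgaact
Irgm1: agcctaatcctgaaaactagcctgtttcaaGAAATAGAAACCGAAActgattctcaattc
Irgm2: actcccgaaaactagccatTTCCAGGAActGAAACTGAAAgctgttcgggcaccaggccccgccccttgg
Igtp: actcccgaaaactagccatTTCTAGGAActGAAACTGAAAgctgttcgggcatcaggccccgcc
Tgtp1: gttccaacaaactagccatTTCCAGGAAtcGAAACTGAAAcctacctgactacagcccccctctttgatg
On GRCm38.p6, the Ifit1 window lies on the plus strand at chr19:34640755-34640824 and that of Ifit3 on the plus strand at chr19:34583343-34583416. The Isg15 window lies on the minus strand at chr4:156200857-156200926 and that of Rsad2 on the minus strand at chr12:26456533-26456602. The neighbours Gbp1, which RefSeq now calls Gbp2b, and Gbp2 lie on the plus strand at chr3:142594680-142594749 and chr3:142620574-142620643. Irgm1 and Tgtp1 lie on the minus strand at chr11:48871421-48871480 and chr11:48992284-48992353, and Irgm2 and Igtp on the plus strand at chr11:58214883-58214952 and chr11:58199492-58199555.

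The windows of Ifit1 and Ifit3 each held 2 separate cores, and that of Isg15 held 3 that overlap. In Irgm2, Igtp and Tgtp1, which encode immunity-related GTPases, a gamma-activated site began 11 bases before a response element core. Irgm2 and Igtp shared 62 of 64 positions of this window and Irgm2 and Tgtp1 44 of 70, while Irgm1 and Irgm2 shared 18 of 60. No match was found in the 300 bases of Irf7 and Ifi44. Ifit2, whose window is not shown, held a gamma-activated site but no response element core.

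**Figure D1:**
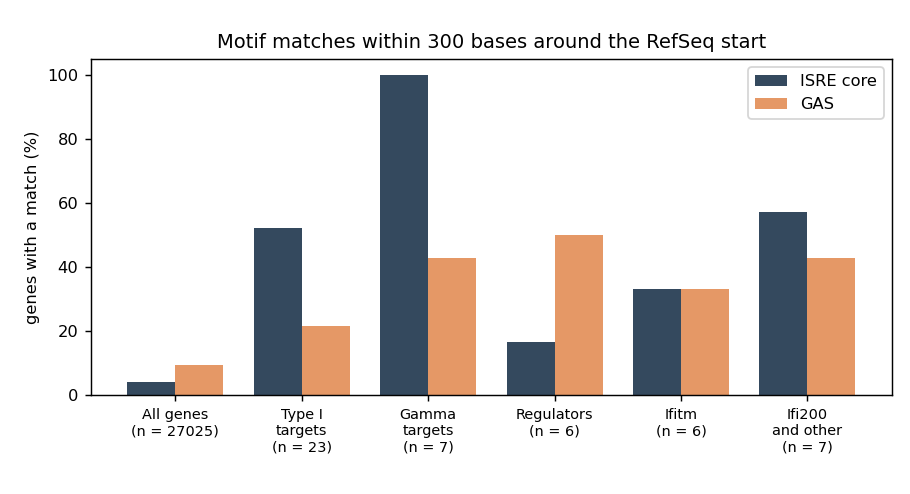
Share of genes, in percent, whose 300-base promoter holds the response element core (ISRE core) or the gamma-activated site (GAS), for all genes of the RefSeq table and for each role, with the number of genes matched. The response element core stood in 3.99% of all genes, 52.2% of type I targets and all 7 gamma targets.

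None of the interferon-induced genes passed the adjusted threshold in limma, and the smallest adjusted p among them was 0.872. Over all genes the share called was 0% as well, with a smallest adjusted p of 0.345, while 514 genes were higher and 561 lower at an unadjusted p under 0.05. Of the 66 interferon-induced genes, 3 were lower at that unadjusted threshold, Gbp1 and Ifit2 among them, where 2.92% of all genes were, and 1 was higher (Irf2bp2), where 2.68% of all genes were. In 6 genes every patDp/+ array lay below every wild type array (5.89% of all genes), and in 2 every patDp/+ array lay above (5.26%). The difference was below 0 in 41 of 66 and above 0 in 25, against 52.7% below and 47.3% above over all genes. The median difference was -0.06, against -0.01 over all genes. For 64 of the 66 genes the 95% confidence interval of the difference lay within 1 on the log2 scale, a 2-fold difference, in both directions. The exceptions were Gbp8 and Rsad2.

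**Figure D2:**
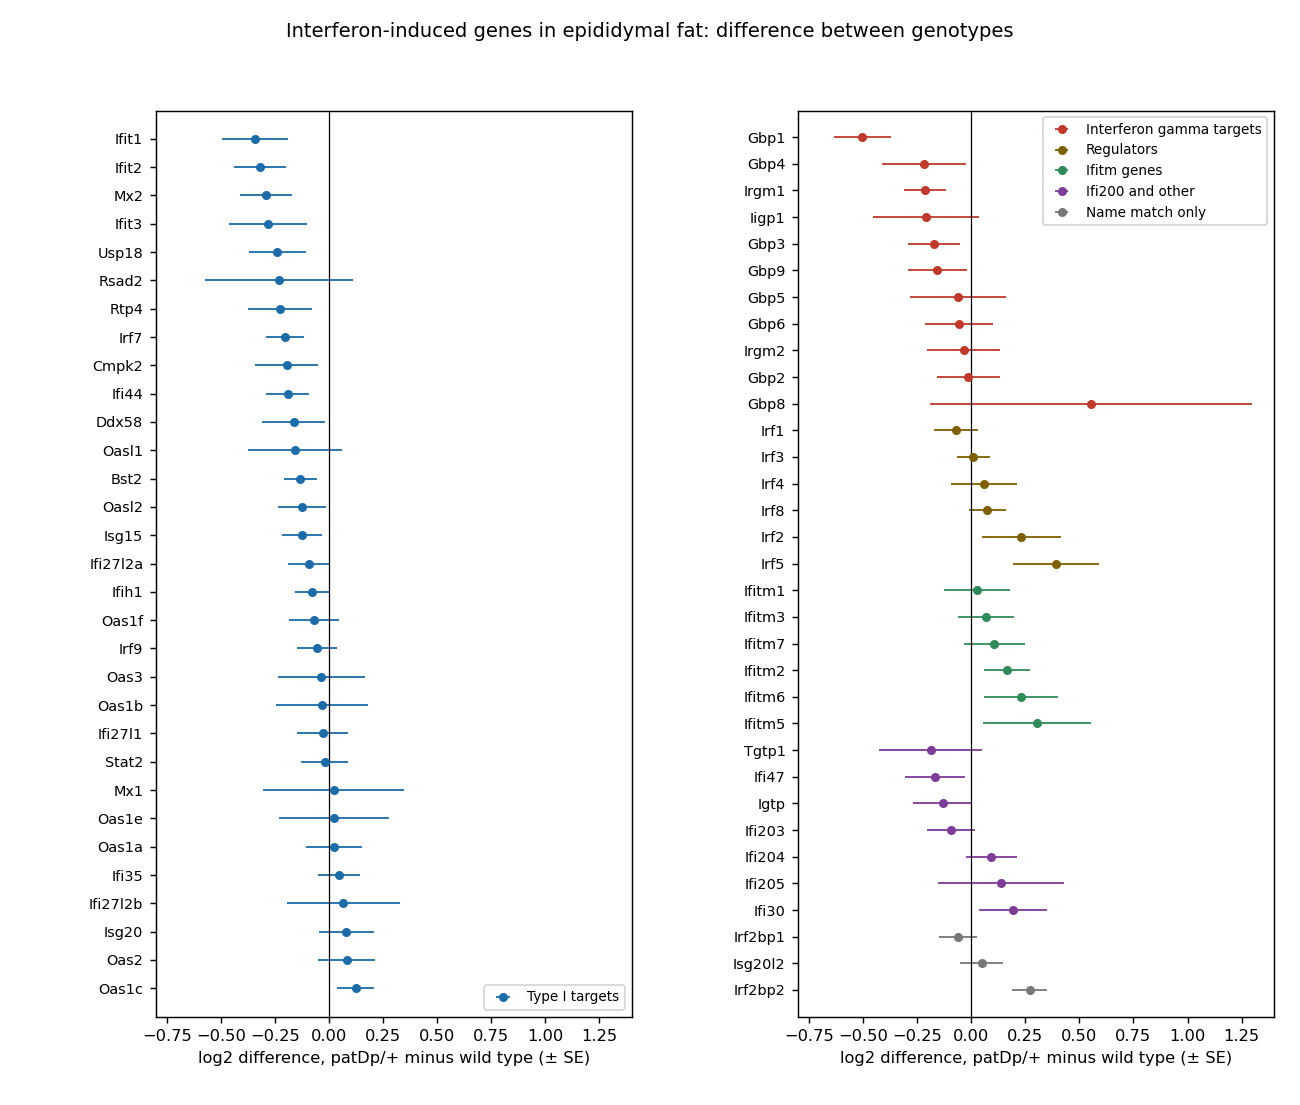
Difference between patDp/+ and wild type (log2) for 64 of the 66 measured genes with the standard error from limma, n = 3 per group, arranged by role. Type I targets ranged from -0.34 to 0.12 and gamma targets from -0.50 to 0.55, and no gene passed the adjusted threshold.

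Among the type I targets, genes of the antiviral response known for a strong answer to interferons alpha and beta, differences were small and most lay below 0. Of 34 such genes on the array 31 were measured, 23 with a difference below 0 and 8 above, with a median of -0.09 and a range from -0.34 to 0.12. At an unadjusted p under 0.05, 1 was lower and none higher, where 2.92% and 2.68% of all genes were. In 4 the patDp/+ arrays lay below all wild type arrays (5.89% of all genes), and in 1 above (5.26%). The differences of the type I targets had an SD of 0.13, against 0.24 over all genes.

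The 3 Ifit genes, which encode tetratricopeptide repeat proteins that bind viral RNA, all had differences below 0, from -0.34 to -0.28. The level of Ifit2 was -1.41, -1.44 and -1.75 in wild type replicates 1 to 3 and -1.98, -1.77 and -1.81 in patDp/+ replicates 1 to 3. The groups did not overlap, though wild type replicate 3 lay next to the patDp/+ arrays, and the difference was -0.32 ± 0.12 (unadjusted p = 0.038, adjusted p = 0.877 in limma). With normexp background correction the difference of Ifit2 was -0.042, and its unadjusted p was 0.055 with the mean over probes, 0.056 when dim probes were kept, 0.066 with array weights and 0.069 with a slide block. Leaving out any one array other than wild type replicate 3 gave an unadjusted p of 0.053 to 0.115 in limma. Ifit1, whose promoter holds 2 cores, stood at -1.34, -1.57 and -1.91 in wild type and at -1.94, -1.87 and -2.03 in patDp/+. Here wild type replicate 3 lay among the patDp/+ arrays, and the difference was -0.34 ± 0.15 (unadjusted p = 0.065, adjusted p = 0.877 in limma). Ifit3 was at 1.82, 1.39 and 1.29 in wild type and 1.27, 1.41 and 0.97 in patDp/+. Wild type replicate 1 was the highest array and the groups overlapped in the others, with a difference of -0.28 ± 0.18. The Ifit probes lie on chromosome 19 (mm9): that of Ifit2 at chr19:34650244-34650303, that of Ifit3 at chr19:34663105-34663164 and that of Ifit1 at chr19:34723796-34723855. Wild type replicate 1 was the highest array for all 3, and their median difference kept its sign under every alternative, from -0.43 without wild type replicate 3 to -0.11 with normexp background correction.

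In 3 further type I targets the groups did not overlap, with the patDp/+ arrays below. Mx2, which encodes a dynamin-like GTPase, was at -1.64, -1.78 and -2.07 in wild type and at -2.08, -2.14 and -2.14 in patDp/+ (difference -0.29 ± 0.12, 95% confidence interval -0.58 to 0.00). Wild type replicate 3 lay just above the highest patDp/+ array, and with normexp background correction the difference of Mx2 was 0.03. Irf7, the transcription factor that drives the later wave of interferon alpha genes, was at -0.51, -0.44 and -0.56 in wild type and at -0.66, -0.62 and -0.84 in patDp/+ (-0.20 ± 0.09). Within the 3 slides its differences were -0.16, -0.18 and -0.27. Bst2, a membrane protein that tethers budding virus particles, was at 3.33, 3.31 and 3.25 in wild type and at 3.19, 3.08 and 3.23 in patDp/+ (-0.13 ± 0.08). The groups of Bst2 came closest on slide 3, where the difference was -0.02.

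In Usp18, Isg15 and Ifi44 the groups overlapped. Usp18, a protease that removes Isg15 from proteins and damps receptor signalling, was at -0.63, -0.82 and -1.09 in wild type and -1.08, -1.01 and -1.17 in patDp/+ (-0.24 ± 0.13). Isg15, the ubiquitin-like protein it removes, was at -0.60, -0.81 and -0.85 against -0.82, -0.89 and -0.92 (-0.12 ± 0.09). Ifi44 was at -1.34, -1.48 and -1.64 against -1.65, -1.76 and -1.63 (-0.19 ± 0.10), and at 0.02 with normexp background correction. In Usp18 and Isg15 wild type replicate 3 lay among the patDp/+ arrays, as in Ifit1, and wild type replicate 1 was the highest array in all 3 genes.

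Rsad2, or viperin, an enzyme that makes a chain-terminating nucleotide, was a type I target with a wide spread in both groups. It was at 0.61, 0.43 and -0.24 in wild type and at -0.34, -0.24 and 0.69 in patDp/+ (-0.23 ± 0.34, 95% confidence interval -1.06 to 0.60). Its highest array was patDp/+ replicate 3, the array on which Ifit1 and Ifit3 were lowest, so Rsad2 and the Ifit genes did not share an order of arrays. All 3 Rsad2 probes had a difference below 0, from -0.29 to -0.23. Cmpk2, a nucleotide kinase encoded beside Rsad2 on chromosome 12, had a difference of -0.19 ± 0.15 and Rtp4 of -0.23 ± 0.15.

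The oligoadenylate synthetases, sensors that make the activator of RNase L on meeting double-stranded RNA, and their Oasl relatives lay on both sides of 0. Of 12 on the array 9 were measured, 5 with a difference below 0 and 4 above, from -0.16 in Oasl1 to 0.12 in Oas1c. Oas1a was at -0.24, -0.41 and -0.48 in wild type and -0.25, -0.22 and -0.59 in patDp/+ (0.02 ± 0.13), with overlapping groups. Oas1c was at -0.75, -0.74 and -0.72 in wild type and -0.69, -0.48 and -0.67 in patDp/+ (0.12 ± 0.08), and every patDp/+ array lay above the wild type arrays. The median of the family was -0.03 and turned to 0.13 with normexp background correction, to 0.02 with array weights and to 0.07 without patDp/+ replicate 3. The RNA sensors Ddx58 (RIG-I) and Ifih1 (MDA5) had differences of -0.16 ± 0.15 and -0.08 ± 0.08. The spot of Ddx58 was marked an outlier in wild type replicate 2, so that its value rests on 2 wild type arrays, and its 4 probes ranged from -0.16 to 0.05.

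The signal carriers of the type I response differed little. Stat2 was at 1.44, 1.23 and 1.08 in wild type and 1.28, 1.17 and 1.24 in patDp/+ (-0.02 ± 0.11, 95% confidence interval -0.28 to 0.24), and Irf9, its partner on DNA, was at 0.59, 0.49 and 0.36 against 0.49, 0.45 and 0.34 (-0.06 ± 0.09). In both genes the patDp/+ arrays lay inside or near the wild type range. Mx1 was at -5.31, -5.49 and -5.16 against -4.57, -5.46 and -5.87 (0.02 ± 0.33). Its probe was near the detection limit and not well above background on 1 patDp/+ array, and C57BL/6 mice are known to carry a defective Mx1 gene. Ifi27l2a, a small protein of membranes, had a difference of -0.09 ± 0.10, and Oasl2 of -0.12 ± 0.11.

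The type I targets tended to be highest on 1 wild type array and lowest on 1 patDp/+ array. Of 30 with a value on all arrays, 16 were highest on wild type replicate 1, where 20.3% of all genes were highest, and 13 were lowest on patDp/+ replicate 3, where 18.4% of all genes were lowest. Averaged over these genes and set against the wild type mean, the wild type arrays stood at 0.10, 0.02 and -0.12 and the patDp/+ arrays at -0.06, -0.08 and -0.16. Wild type replicate 3 thus lay below 2 of the 3 patDp/+ arrays. The mean difference was -0.10, with an SD of 0.11 among wild type and 0.05 among patDp/+ arrays. Without wild type replicate 3, 11 of the 66 interferon-induced genes were lower at an unadjusted p under 0.05, where 2.74% of all genes were, among them Ifit1, Ifit2, Mx2, Rtp4, Usp18, Ifi44, Ddx58, Gbp1, Irgm1 and Ifi47. None passed the adjusted threshold in that fit either (smallest adjusted p of these 0.808), and that count was read after the array had been seen to stand low.

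Gamma targets, here the Gbp, Irgm and Iigp genes, encode GTPases that attack the vacuoles of intracellular microbes. All 11 were measured, 10 with a difference below 0 and 1 above, with a median of -0.16. At an unadjusted p under 0.05, 1 was lower and none higher, where 2.92% and 2.68% of all genes were. In that 1 gene alone the groups did not overlap, with patDp/+ below, as in 5.89% of all genes.

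**Figure D3:**
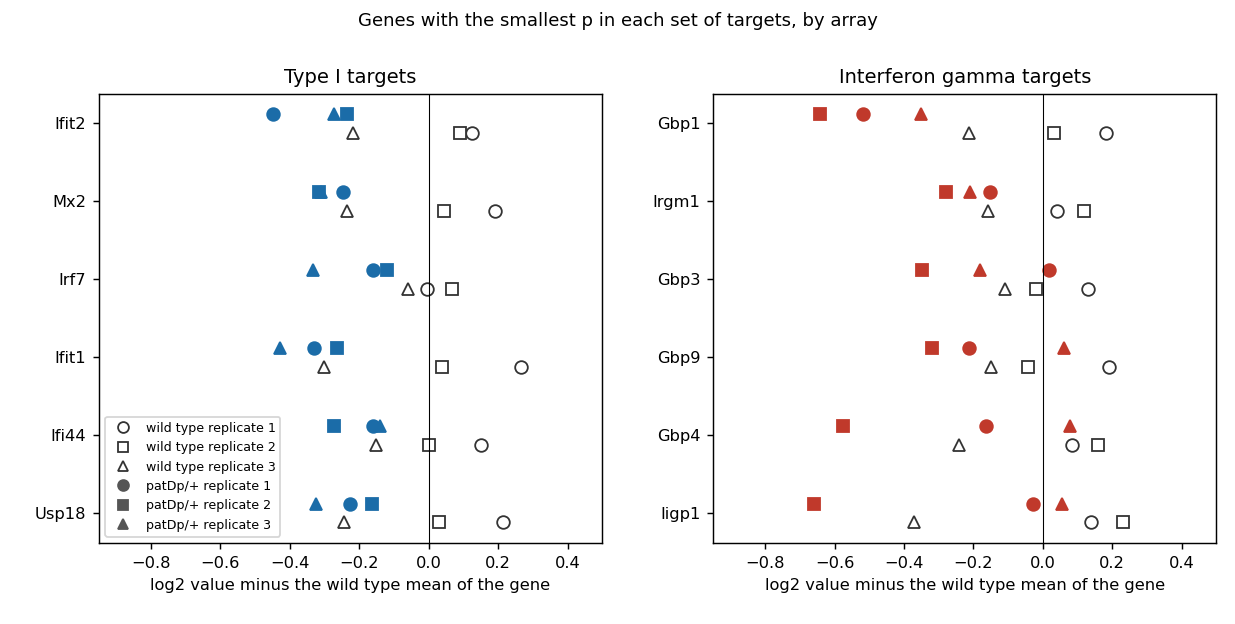
Level of each gene on each array in log2, minus the mean of the wild type arrays for that gene, for the 6 type I targets and the 6 gamma targets with the smallest unadjusted p. Open symbols are wild type and filled symbols patDp/+, and the shape gives the replicate number. Wild type replicate 3 (open triangles) lies at or next to the patDp/+ arrays in Ifit2, Mx2, Ifit1, Ifi44 and Usp18, and patDp/+ replicate 2 (filled squares) is the lowest array in all 6 gamma targets shown.

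The gene in question was Gbp1, a guanylate-binding protein whose probe lies at chr3:142281897-142281956 (mm9). It was at -3.76, -3.91 and -4.15 in wild type and at -4.45, -4.58 and -4.29 in patDp/+. Every patDp/+ array lay below every wild type array, by a difference of -0.50 ± 0.13 (unadjusted p = 0.0081, adjusted p = 0.872 in limma). Gbp1 is dim on this array, and the difference depended on the background correction: it was 0.33 with normexp and -0.20 in the authors' deposited table. Its neighbour Gbp2, with the same TTTCACTTTC core, was at 2.88, 3.32 and 2.85 against 3.14, 2.92 and 2.95 (-0.01 ± 0.15), with overlapping groups. Gbp3 was at 2.50, 2.35 and 2.27 against 2.39, 2.03 and 2.19 (-0.17 ± 0.12). Gbp5 and Gbp6, which RefSeq now calls Gbp7, had differences of -0.06 ± 0.22 and -0.06 ± 0.16.

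The probes of 3 further Gbp genes lie on chromosome 5. Gbp4 was at -0.92, -0.84 and -1.24 in wild type and at -1.16, -1.58 and -0.92 in patDp/+ (-0.22 ± 0.19), and Gbp9 was at -0.35, -0.58 and -0.68 against -0.75, -0.86 and -0.48 (-0.16 ± 0.14). In both, patDp/+ replicate 2 was the lowest array and the groups overlapped. Gbp8 was at 0.29, -1.27 and -1.68 against -0.06, -1.66 and 0.71 (0.55 ± 0.74, 95% confidence interval -1.25 to 2.36). Arrays of both groups were found at each end of its range, and its other probe gave 0.04. Gbp genes are close relatives, and whether a probe also binds a neighbour was not tested.

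The immunity-related GTPases were lower in patDp/+ by value in all 6 cases, from -0.21 to -0.04, with none at an unadjusted p under 0.05. Irgm1, a regulator of the group that sits on host membranes, was at 1.62, 1.69 and 1.42 in wild type and 1.42, 1.30 and 1.37 in patDp/+ (-0.21 ± 0.10, 95% confidence interval -0.45 to 0.02). The groups met at wild type replicate 3. Iigp1, an effector that loads onto the vacuole of Toxoplasma, was at 3.02, 3.11 and 2.51 against 2.85, 2.22 and 2.94 (-0.21 ± 0.24), and Igtp, another regulator, at 2.66, 2.65 and 2.28 against 2.49, 2.24 and 2.47 (-0.13 ± 0.14). In Iigp1 and Igtp, patDp/+ replicate 2 was the lowest array. Tgtp1 and Irgm2, which share the spacing of motifs with Igtp, had differences of -0.19 ± 0.24 and -0.04 ± 0.17. Without patDp/+ replicate 2 the median of the 6 genes was -0.02 and 3 lay below 0.

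The low gamma values followed single arrays. Of the 11 gamma targets, 7 were lowest on patDp/+ replicate 2, where 17.5% of all genes were lowest, and the other 4 on wild type replicate 3, where 8.97% were. Averaged and set against the wild type mean, the wild type arrays stood at 0.24, 0.05 and -0.29 and the patDp/+ arrays at 0.02, -0.40 and 0.09. The mean difference of -0.10 was smaller than the SD within groups (0.27 among wild type and 0.26 among patDp/+ arrays). Without patDp/+ replicate 2 the median of the gamma targets was 0.01 and 5 of 11 lay below 0, and with array weights 6 of 11 lay below 0.

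Each slide carried 1 array of each group, which allowed the comparison to be made within slides. The median difference of the type I targets was -0.17, -0.07 and -0.04 on slides 1 to 3, with 24, 19 and 19 genes below 0. That of the gamma targets was -0.19, -0.39 and 0.21, with 10, 11 and 3 below 0, so its sign turned on slide 3. Over all genes the medians were 0.02, -0.02 and -0.01. The mean of the type I targets minus that of the gamma targets differed by 0.00 ± 0.19 (SE, n = 3) between the groups, and by 0.05, 0.36 and -0.42 within the slides. A difference between both sets of targets was therefore not detectable with these arrays, and differences of either sign remain within that error.

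**Figure D4:**
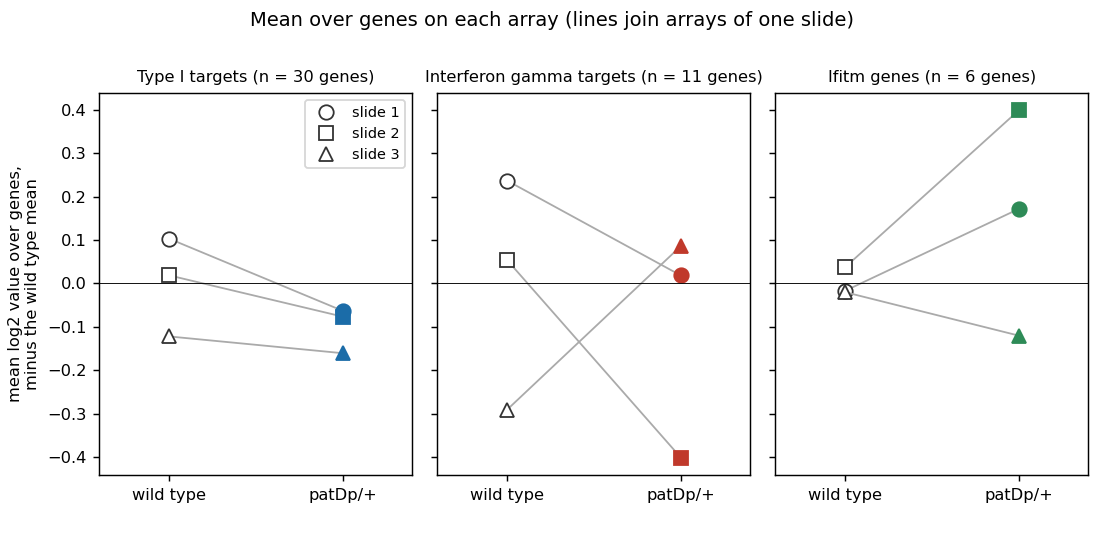
Mean over the type I targets, the gamma targets and the Ifitm genes on each array in log2, minus the mean of the wild type arrays. Open symbols are wild type, filled symbols patDp/+, and lines join the arrays of one slide. The type I lines all slope down, to -0.16 on slide 3, while the gamma lines reach -0.40 on slide 2 and rise on slide 3, and the Ifitm line falls on slide 3 only.

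Among the other Irf factors, which regulate the response, differences lay on both sides of 0. Irf1, which binds response elements downstream of interferon gamma, was at 3.46, 3.53 and 3.29 in wild type and 3.23, 3.38 and 3.45 in patDp/+ (-0.07 ± 0.10). The groups overlapped. Irf3, which answers to viral sensors, had a difference of 0.01 ± 0.08, Irf8, a factor of myeloid cells, of 0.07 ± 0.09 and Irf4 of 0.06 ± 0.15.

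Irf5, a factor of macrophages that drives inflammatory cytokines, had the largest difference of these. It was at 0.18, 0.24 and 0.18 in wild type and 0.90, 0.75 and 0.13 in patDp/+ (0.39 ± 0.20). Replicates 1 and 2 of patDp/+ lay above all wild type arrays and replicate 3 below them. Irf2, a repressor at response elements, was at 0.75, 0.20 and 0.30 against 0.51, 0.54 and 0.90 (0.23 ± 0.18), with overlapping groups.

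Macrophage markers were high on the same arrays as Irf5. All 12 were measured, none at 0, and their summed level (on the linear scale, in units of the array's 75th percentile) was 74.8 to 81.8 in wild type and 106, 101 and 77.6 in patDp/+ replicates 1 to 3. Of these markers, 12 of 12 had a difference above 0, with 1 at an unadjusted p under 0.05, where 2.68% of all genes were higher. Their part in the values of Irf5 and Ifi30 was not tested. In whole tissue, a change in the number of cells of a type and a change in RNA per cell cannot be told apart.

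The Ifitm genes, membrane proteins that block the fusion of viruses with the cell, had differences above 0 in 6 of 6, with a median of 0.13 and none at an unadjusted p under 0.05. Ifitm2 was at 3.62, 3.63 and 3.67 in wild type and 3.83, 3.97 and 3.61 in patDp/+ (0.16 ± 0.11). Ifitm6 was at 1.34, 1.39 and 1.37 against 1.56, 1.96 and 1.28 (0.23 ± 0.17), and Ifitm3, the best known member, at 5.01, 4.86 and 4.91 against 5.03, 5.20 and 4.76 (0.07 ± 0.13). The wild type arrays lay close together, while patDp/+ replicate 2 was the highest array for all 6 genes, where 13.5% of all genes were highest, and patDp/+ replicate 3 the lowest for 4 of 6. Within slides the median was 0.15, 0.34 and -0.10, so the sign turned on slide 3. With normexp background correction 2 of the 6 lay below 0, Ifitm3 at -0.08. The dim Ifitm5, known from bone, was at -5.43, -4.70 and -5.05 against -4.58, -4.50 and -5.18 (0.31 ± 0.25).

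Without patDp/+ replicate 3, 6 of the 66 genes were higher at an unadjusted p under 0.05, where 5.73% of all genes were: Irf5, Ifi30, Ifitm2, Ifitm6, Ifitm7 and Irf2bp2. In that fit Irf5 had a difference of 0.62 ± 0.09 (unadjusted p = 0.00081, adjusted p = 0.305 in limma). The array left out was the lowest for Irf5, Ifi30, Ifitm2, Ifitm6 and Ifitm7, so these differences rise by construction. Without wild type replicate 3 no interferon-induced gene was higher at that threshold in limma (2.82% of all genes were), and without wild type replicate 1 there were 2, Irf2bp2 and Irf2 (2.02% of all genes).

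The remaining Ifi genes with Igtp and Tgtp1 had 4 of 7 differences below 0, a median of -0.09 and none at an unadjusted p under 0.05. Ifi30, a thiol reductase of antigen processing also called GILT, was at 1.48, 1.54 and 1.62 in wild type and 2.01, 1.79 and 1.41 in patDp/+ (0.19 ± 0.16). As in Irf5, patDp/+ replicate 3 was its lowest array. Ifi47, another immunity-related GTPase, was at 0.86, 0.81 and 0.41 against 0.42, 0.56 and 0.61 (-0.17 ± 0.14), with overlapping groups. Of the Ifi200 genes, which encode DNA-binding proteins of the innate response, Ifi203 had a difference of -0.09 ± 0.11, Ifi204 of 0.09 ± 0.12 and Ifi205 of 0.14 ± 0.29.

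A few genes entered by the letters of their names only. Irf2bp2, a corepressor that binds Irf2, was at 1.45, 1.28 and 1.30 in wild type and 1.55, 1.64 and 1.65 in patDp/+. The patDp/+ arrays all lay above those of wild type (0.27 ± 0.08, unadjusted p = 0.015, adjusted p = 0.872 in limma), and with normexp background correction the difference was 0.17 (unadjusted p = 0.172). Irf2bp1 had a difference of -0.06 ± 0.09 and Isg20l2, a nuclease of ribosome assembly, of 0.05 ± 0.10. The other probe of Isg20l2 gave 0.35.

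Upstream genes of the pathway were read from a list of 39 ligands, receptors, kinases, sensors and inhibitors, of which 31 were measured, 23 with a difference above 0 and 8 below, with a median of 0.13. Over all genes the median was -0.01. At an unadjusted p under 0.05, 2 were higher and none lower, where 2.68% and 2.92% of all genes were. In 7 the patDp/+ arrays all lay above those of wild type, as in 5.26% of all genes. Socs3, an inhibitor of cytokine receptors known best for damping signals of the interleukin-6 and leptin receptors, was at 1.07, 0.96 and 0.83 in wild type and 1.48, 1.97 and 1.27 in patDp/+ (0.62 ± 0.19, unadjusted p = 0.016, adjusted p = 0.872 in limma). Traf3, an adaptor of viral sensors, was at 1.01, 1.12 and 1.13 against 1.44, 1.35 and 1.23 (0.26 ± 0.09). Neither overlapped between the groups.

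Receptors and kinases differed by less. Ifnar1 was at -0.65, -0.69 and -0.89 in wild type and -0.51, -0.65 and -1.00 in patDp/+ (0.03 ± 0.15), and Ifnar2 at 3.46, 3.45 and 3.51 against 3.57, 3.51 and 3.81 (0.16 ± 0.10). Of the gamma receptor's chains, Ifngr1 had a difference of -0.05 ± 0.09. Ifngr2 was at 1.43, 1.71 and 1.72 in wild type and 1.84, 1.84 and 1.78 in patDp/+ (0.20 ± 0.10), without overlap. Jak1, Jak2 and Tyk2 had differences of 0.08 ± 0.08, 0.05 ± 0.07 and 0.14 ± 0.10. In Ifnar2 and Tyk2 too the patDp/+ arrays all lay above those of wild type, by a narrow margin. Of the ligands, Ifnb1 and several interferon alpha genes were among those not measured. Ifng was dim, at -4.06, -4.33 and -4.33 in wild type and -3.84, -4.71 and -3.63 in patDp/+ (0.18 ± 0.28). Its lowest array was patDp/+ replicate 2, also the lowest for 7 of the 11 gamma targets. Its highest was patDp/+ replicate 3, the highest for 1 of the 11.

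Interferon-induced genes outside the name rule gave medians nearer to 0. Of 29 further type I targets 28 were measured, 15 with a difference below 0 and 13 above, with a median of -0.04. Zbp1, a sensor of nucleic acid in the Z form, was higher in patDp/+ at an unadjusted p of 0.0065 (-1.72, -1.76 and -1.97 in wild type against -1.38, -1.47 and -1.48, a difference of 0.37 ± 0.09 with an adjusted p of 0.872 in limma), and its groups did not overlap. On the other side stood Uba7, the enzyme that activates Isg15, at -0.20 ± 0.09, Slfn8 at -0.26 ± 0.13 and Znfx1 at -0.17 ± 0.09. The groups of Uba7 and Slfn8 did not overlap either. Of the 28 genes, the patDp/+ arrays all lay below those of wild type in 3 and above in 1. Over all genes the shares were 5.89% and 5.26%. Cxcl10, a chemokine induced by both kinds of interferon, was at -0.34, -0.18 and -1.05 against 0.47, -0.67 and -0.66 (0.23 ± 0.38).

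Of 24 further gamma targets 22 were measured, 14 with a difference below 0 and 8 above, with a median of -0.03 and none at an unadjusted p under 0.05. Gm4951, another GTPase of the Iigp kind, was at -0.68 ± 0.28, Psmb8, a subunit of the immunoproteasome, at -0.17 ± 0.08, and the tryptophan-degrading enzyme Ido1 at -0.35 ± 0.18. Tapbp, a chaperone of peptide loading, was at 0.15 ± 0.07, Cd74, the invariant chain of class II molecules, at 0.17 ± 0.11, and Psme1 at 0.11 ± 0.07. Cxcl9, a chemokine largely specific to interferon gamma, was at 2.17, 2.18 and 2.15 in wild type and 2.01, 1.77 and 2.28 in patDp/+ (-0.15 ± 0.14), again lowest on patDp/+ replicate 2.

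Markers of cells that make or answer to interferon were read beside these values, and none passed the adjusted threshold. The 16 measured T and NK cell markers (Cd4 was not measured) summed to 2.62 to 3.23 in wild type and 3.58 to 4.04 in patDp/+. Of these, 15 of 16 had a difference above 0, with 5 of them at an unadjusted p under 0.05, where 2.68% of all genes were higher. The differences ran from Cd8a at 1.35 ± 0.13 (adjusted p = 0.345 in limma) to Klrb1c at -0.25 ± 0.16. Among them, Cd3e, a chain of the T cell receptor complex, was at 0.08 ± 0.09 and Prf1, the perforin of killer cells, at 0.01 ± 0.16. The 7 measured B cell markers (Blk and Pax5 were not measured) summed to 1.84 to 2.62 in wild type and 0.857 to 1.98 in patDp/+. All had a difference below 0, from -1.24 ± 0.52 in Ms4a1 to -0.12 ± 0.27 in Cd79a. At an unadjusted p under 0.05, 4 of the 7 were lower, where 2.92% of all genes were. The 6 endothelial markers summed to 24.7 to 27.1 against 21.7 to 25.8, and the 6 plasmacytoid dendritic cell markers to 6.03 to 7.20 against 6.16 to 6.59. The latter sum mostly follows Tcf4, with a mean of 2.64 in wild type and 2.61 in patDp/+. The other markers of that list were dim, such as Siglech at a mean of -4.44 and -4.23. Of the 6, 3 had a difference below 0 and 3 above, so the sum says little about these cells. The part of these markers in the values of the type I and gamma targets was not tested.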

How the data were processed

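Spots were quantified in Agilent Feature Extraction 9.5.1.1 per the file headers, and the deposited processed intensity of a spot is background-subtracted and detrended within its array. The authors also deposited a log2 table of the same arrays, used as an alternative, without a statement of how it was made. Feature Extraction 9.5 and limma 3.18.2 stand in the submitters' processing notes, their roles unstated. The mean and background intensity of each spot, per the file headers, served for normexp.

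Values were log2 processed intensity, from which the array's own 75th percentile (control probes left out) was subtracted, with outlier spots left out and replicate spots averaged. Probes well above background on at least 3 of 6 arrays were kept (27975 of 41174), and the brightest probe stood for a gene. RefSeq accessions (GRCm38.p6) updated the names of 27042 probes. Probe coordinates are those of the files (mm9), and their place in exons or untranslated regions was not analysed here. Levels of different probes were not compared.

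All 6 arrays were fitted with limma 3.58.1 (R 4.3.3) in a two-sided comparison by lmFit and eBayes with no covariates, with Benjamini-Hochberg adjustment over 19194 features and a threshold of 0.05. The scripts were tested on simulated data. The number of arrays limits the precision. The series speaks of separate mice, so p-values measure the spread between animals. Slide and replicate number coincide; deviations of arrays sharing a number correlated at 0.11, -0.09 and -0.04, so the block is an alternative only. The genes, their roles and the other lists were chosen with earlier results of these data known. All measured genes could be named; values per array were given for the 6 smallest p in the type I and gamma roles, the 3 smallest in other roles, and fixed well-known genes. Not all genes covered by that rule are reported here. Alternatives were normexp (offset 50), quantile normalization, the deposited table, other filters and probe rules, blocks, array weights, another variance model and leaving out each array. Closely related family members may share probes, and cross-binding was not tested.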

Additional observations from a re-analysis of the deposited data

How the results depend on the processing

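No gene passed the adjusted threshold in limma under any alternative, interferon-induced or not, nor at an adjusted p under 0.1. The median of the type I targets stayed below 0 in all of them, from -0.15 to -0.05 when an array was left out and at -0.04 with array weights or normexp. That of the gamma targets ran from -0.23 to 0.01 when an array was left out. Type I minus gamma medians ran from -0.12 to 0.08 when an array was left out, and to 0.098 with the mean over probes. Leaving out arrays gave 2 to 11 of the 66 interferon-induced genes lower and 0 to 6 higher at an unadjusted p under 0.05. Of all 19194 genes, 395 to 703 were lower and 289 to 1099 higher in these fits. Between 5 and 10 of 11 gamma targets lay below 0. With normexp 0 were lower and 0 higher, where 273 and 547 of all genes were. With array weights 2 were higher, where 956 of all genes were, and 6 gamma targets lay below 0. With the slide or, equally, the replicate block, 3 were lower and 1 higher, where 529 and 453 of all 19194 genes were. In that limma fit Ifit1 (unadjusted p = 0.048) took the place of Ifit2 (0.069).

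Over all genes, 47.8% of the 1075 unadjusted calls were higher in patDp/+, against 66.7% of 820 with normexp, 60.7% of 1212 with no filter on dim probes, 61.5% of 1788 without patDp/+ replicate 3 and 50.6% of 1888 with array weights. Of 52 genes followed, 33 kept their sign throughout. With normexp the difference turned to 0.027 in Mx2, 0.016 in Ifi44, 0.097 in Oasl1, 0.19 in Ddx58, 0.33 in Gbp1, -0.083 in Ifitm3 and -0.064 in Jak1. In the authors' deposited table it was -0.017 in Oas1a and 0.90 in Ddx58. The mean over probes gave 0.015 in Irf9 and 0.23 in Ddx58. Array weights gave 0.022 in Irf9, 0.059 in Stat2, 0.025 in Oasl1, 0.071 in Gbp2 and 0.11 in Irgm2. The cause of these turns was not tested. Leaving out an array turned the sign within these ranges: Cxcl10 -0.14 to 0.42, Ddx58 -0.36 to 0.039, Gbp2 -0.094 to 0.14, Ifitm3 -0.035 to 0.19, Ifnar1 -0.080 to 0.17, Ifng -0.034 to 0.51, Ifngr1 -0.094 to 0.020, Iigp1 -0.40 to 0.013, Irf9 -0.12 to 0.0017, Irgm2 -0.21 to 0.090, Mx1 -0.34 to 0.31, Oas1a -0.041 to 0.14, Oasl1 -0.29 to 0.071, Stat2 -0.11 to 0.073 and Tgtp1 -0.36 to 0.020. Dim probes such as those of Mx1, Oas3, Ifitm5 and Ifi27l2b, not well above background on 1 array each, limit what can be read from their values.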
